A study of Mus musculus with 15 samples.

Results

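The joining segments TRAJ49, TRAJ50 and TRAJ53 lie in the upstream part of the cluster of alpha chain joining segments, on mouse chromosome 14. Counted from the 5′ end, TRAJ53 is number 9, TRAJ50 number 12 and TRAJ49 number 13 of 60 alpha joining segments in the RefSeq table of GRCm38.p6, which was used for names and order only. The CDR3 peptides made with them were taken to be those that end in GYQNFY (TRAJ49), SFSKLV (TRAJ50) or SNYKLT (TRAJ53). Of 92219 CDR3 peptides listed in 15 libraries, 5603 had one of these ends, 3281 of them the TRAJ49 end, 1042 the TRAJ50 end and 1280 the TRAJ53 end. The pairing of ends with segments is general knowledge and was not checked against a reference sequence. The residue before the end was the germline glycine in 99.8 to 100% of TRAJ53 reads by group mean, and the germline serine in 99.7 to 99.8% of TRAJ50 reads.

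A T cell receptor alpha chain is assembled in the thymus by joining a variable segment to a joining segment. The CDR3 is the loop across that joint and contacts the peptide presented by an MHC molecule. Its start is encoded by the variable segment, its end by the joining segment, and the residues between them are set by trimming and by added nucleotides. A thymocyte can rearrange its alpha locus several times, and successive rearrangements tend to use joining segments ever farther downstream, so that upstream segments are typical of early joints.

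The study sequenced alpha chains of CD8+ T cells of C57BL/6 males that all carry the TCRbtg transgene, a fixed beta chain, which leaves the alpha chain to vary between cells. The Tumour group comprised 5 libraries of CD8b+ CD4neg cells from prostate tumours of TCRbtg TRAMP+/- males aged 27 weeks, in which a viral oncogene is driven by a prostate promoter. The MP (memory-phenotype) group comprised 5 libraries of CD8b+ CD4neg CD44hi CD122+ cells, and the Naive group 5 libraries of CD8b+ CD4neg CD44lo CD122neg cells, both from pooled spleen and lymph nodes of TCRbtg males aged 9 weeks. Tumour cells thus differ from the others in age, tissue, the TRAMP transgene and the absence of a CD44 and CD122 gate at once, and these cannot be told apart.

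The libraries held 547665 to 943699 reads, and the lowest listed count was 2 reads. Numbers of distinct CDR3s were 934 to 2657 per Tumour library, 2216 to 13950 per MP library and 14914 to 29559 per Naive library. MP 1 and MP 5, with 12401 and 13950 distinct CDR3s, stood apart from MP 2 to MP 4, which held at most 3392. Invariant CDR3s of other T cells that the gates could hold were near 0: the iNKT CDR3 had at most 5 reads in any library, and the MAIT CDR3 had at most 101 reads in a Naive, 12 in an MP and 60 in a Tumour library. Neither has one of the 3 ends.

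The following CDR3s are among those with the most reads of each end in MP and Naive libraries. They recur in all 5 libraries of their group, except for the TRAJ53 end in MP, where no CDR3 recurred so. AVNTGYQNFY, the second TRAJ49 loop in Naive, also recurs in all 5 Naive libraries. It was listed in 4 MP libraries too and is described below. The letters run from the variable to the joining side, without the conserved residues that flank the loop.
TRAJ49, most abundant in MP: AMAGYQNFY
TRAJ49, the second in MP: AITGYQNFY
TRAJ49, the third in MP: ALGNTGYQNFY
TRAJ49, most abundant in Naive: AVSTGYQNFY
TRAJ49, the third in Naive: AFNTGYQNFY
TRAJ50, most abundant in MP: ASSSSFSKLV
TRAJ50, most abundant in Naive: AAIIASSSFSKLV
TRAJ53, most abundant in MP, in MP 3 alone: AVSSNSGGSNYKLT
TRAJ53, most abundant in Naive: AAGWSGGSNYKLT

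The 3 ends together held 1.19, 2.04, 2.05, 1.54 and 8.46% of reads in Tumour 1 to 5. In MP 1 to 5 they held 6.20, 8.42, 5.97, 5.38 and 7.07%. In Naive 1 to 5 the share was 8.99, 8.52, 8.48, 8.57 and 8.47%. All MP libraries lay below all Naive libraries, and 4 of the 5 tumours lay below all MP libraries, while Tumour 5 was above all of them. The means were 3.06 ± 3.04% in Tumour, 6.61 ± 1.18% in MP and 8.61 ± 0.220% in Naive (SD, n = 5 each), and the sum was not tested. Most of it was TRAJ49, which made up 66.6 to 90.7% of these reads in the 15 libraries.

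**Figure D1:**
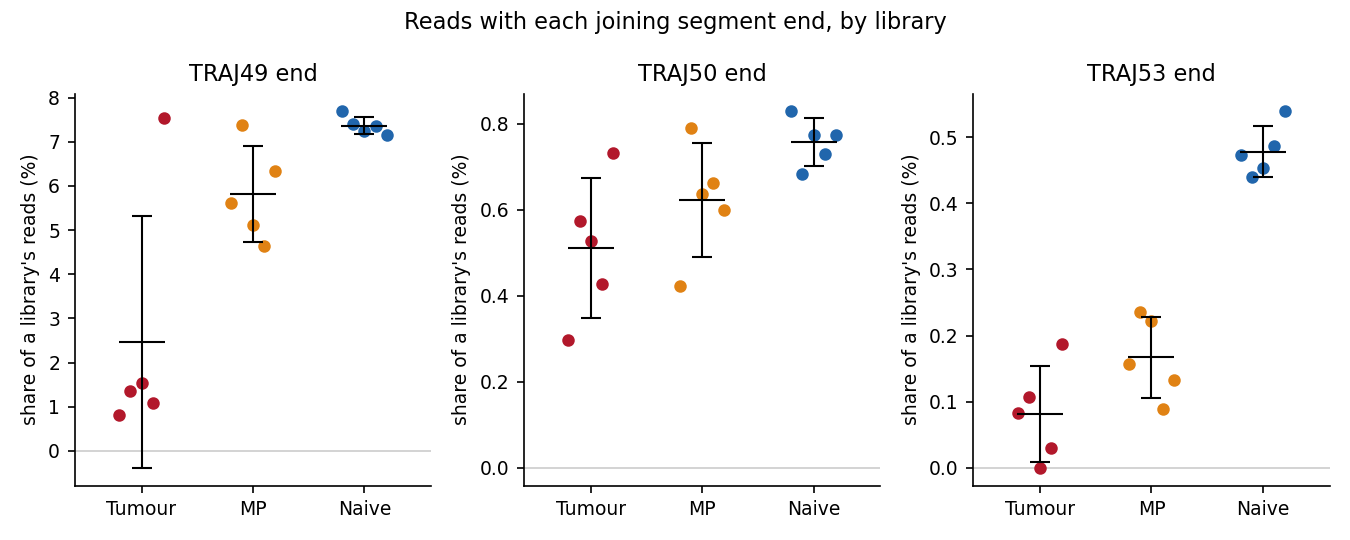
Share of each library's reads (%, vertical axes of different range) whose CDR3 ends in the TRAJ49, TRAJ50 or TRAJ53 end, by group. Points are libraries, bars the group mean and SD (n = 5). TRAJ53 shows MP and Tumour below every Naive library, and Tumour 5 stands at 7.54% for TRAJ49.

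The clearest difference between MP and Naive cells lay in TRAJ53, the most upstream of these segments. Its end held 0.157, 0.235, 0.222, 0.0884 and 0.133% of reads in MP 1 to 5. In Naive 1 to 5 it held 0.472, 0.440, 0.453, 0.487 and 0.539%. Every MP library was below every Naive library. The mean was 0.167 ± 0.0615% in MP and 0.478 ± 0.0385% in Naive (SD, n = 5 each), an MP share 0.349 times the Naive one (exact permutation test over libraries, two-sided, adjusted p = 0.0123 over 45 ends). Of all 45 ends of 6 residues tested, 48.9% were lower and 26.7% higher in MP, so that a lower share is common among ends. By the ratio, TRAJ53 ranked 5 from the lowest of 44 ends with reads in both groups, with a log2 ratio of -1.52. The call held without any one library and was lost without MP 1 and MP 5 together (difference -0.296 percentage points, adjusted p = 0.0502, n = 3 against 5 in the exact test). Reads are measured per library, so that fewer cells with a segment and less receptor RNA per cell cannot be told apart.

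TRAJ49 gave the most reads of the 3 in every library. Its end held 5.62, 7.39, 5.11, 4.63 and 6.34% of reads in MP 1 to 5. It held 7.69, 7.40, 7.25, 7.35 and 7.15% in Naive 1 to 5. MP 2 lay among the Naive libraries and the other 4 MP libraries below all of them. The mean was 5.82 ± 1.08% in MP against 7.37 ± 0.203% in Naive (SD, n = 5 each), a difference of -1.55 percentage points (exact permutation test, adjusted p = 0.0420). The call was lost when any library other than MP 2 was left out, with adjusted p of 0.0630 to 0.0840, and without MP 2 the difference was -1.95 percentage points (adjusted p = 0.0210). Counted by distinct CDR3s rather than reads, the difference was -0.432 percentage points (adjusted p = 0.574).

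For TRAJ50 no difference in share passed the test. Its end held 0.422, 0.791, 0.638, 0.662 and 0.600% of reads in MP 1 to 5 and 0.829, 0.683, 0.775, 0.729 and 0.773% in Naive 1 to 5. The groups overlapped through MP 2. The mean was 0.623 ± 0.133% in MP and 0.758 ± 0.0549% in Naive (SD, n = 5 each; exact permutation test, adjusted p = 0.0676). Without MP 2 the difference of -0.177 percentage points passed (adjusted p = 0.0210), while without the most abundant CDR3 of each end it had the opposite sign, 0.0164 percentage points (adjusted p = 0.889).

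The 3 segments thus did not move by one factor. TRAJ49 reads were 23.0 to 52.4 times TRAJ53 reads in MP libraries and 13.3 to 16.8 times in Naive libraries, with no overlap. This ratio was not tested. TRAJ48, the next segment downstream of TRAJ49, whose end is GNEKIT, had the lowest ratio of all ends, with 0.640 ± 0.283% in MP against 3.10 ± 0.0899% in Naive (SD, n = 5 each; exact permutation test, adjusted p = 0.0123).

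**Figure D2:**
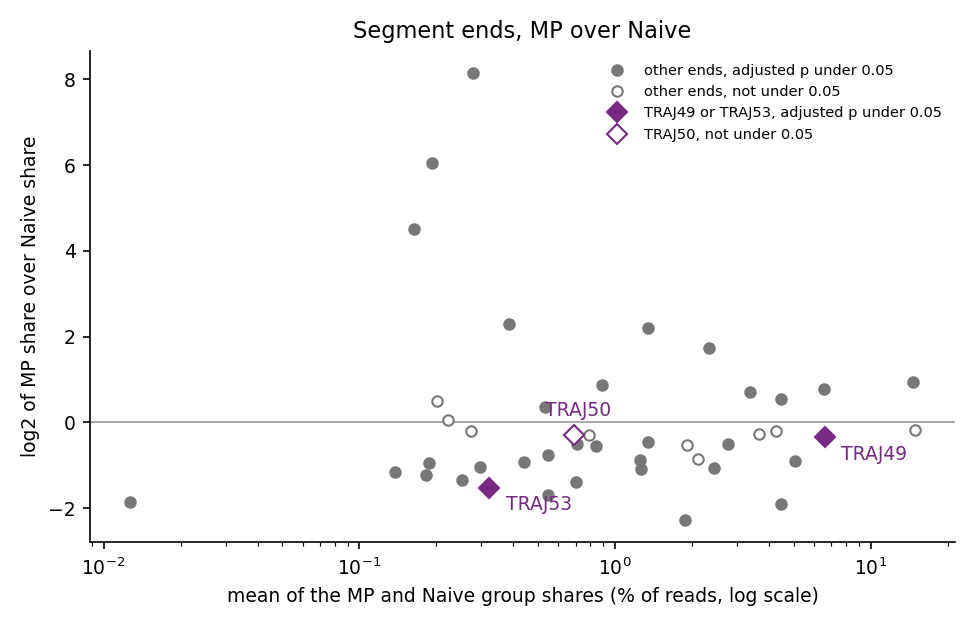
The log2 of the MP over the Naive share of reads (vertical) against the mean of both group shares (%, log scale) for the 44 ends with reads in both groups. Each point is an end, filled where the exact permutation test gave an adjusted p under 0.05. TRAJ53 lies at -1.52, near the lower edge of all ends, and TRAJ49 and TRAJ50 lie close to 0.

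The loops also differed in length, which the choice of members did not use. CDR3s with the TRAJ50 end had a read-weighted mean length of 11.2, 11.1, 11.7, 11.1 and 10.9 residues in MP 1 to 5. In Naive 1 to 5 it was 12.7, 12.7, 12.8, 12.7 and 12.7 residues. The MP loops were shorter in every library, by 1.48 residues on average (11.2 ± 0.304 in MP and 12.7 ± 0.0355 in Naive, SD, n = 5 each; exact permutation test, adjusted p = 0.0175). Of the 42 ends tested for length, 42.9% were shorter and 11.9% longer in MP. Loops of 10 residues made up 44.7 ± 17.8% of TRAJ50 reads in MP and 2.55 ± 1.43% in Naive, and loops of 13 residues 6.10 ± 4.27% in MP and 61.1 ± 3.04% in Naive (SD, n = 5 each). The call was lost without MP 1 and MP 5 together, at a difference of -1.36 residues (adjusted p = 0.0714).

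TRAJ49 loops had mean lengths of 10.2 to 10.4 residues in MP libraries and 10.4 to 10.5 in Naive libraries. The mean difference of -0.211 residues passed the test (exact permutation, n = 5 each, adjusted p = 0.0317), but not when any library other than MP 3 or Naive 3 was left out (adjusted p of 0.0533 to 0.0635). The small difference in means covered a large one in the distribution. Loops of 9 residues held 34.3 ± 4.61% of TRAJ49 reads in MP and 10.2 ± 0.568% in Naive, and loops of 10 residues 18.8 ± 0.974% in MP and 50.5 ± 1.38% in Naive (SD, n = 5 each). Loops of 11 residues were also higher in MP, at 32.3 ± 4.94% against 22.1 ± 1.12% in Naive (SD, n = 5 each). The MP loops thus had peaks at 9 and at 11 residues. The single lengths were not tested. For TRAJ53 the mean was 13.7 ± 0.894 residues in MP and 13.3 ± 0.0220 in Naive (SD, n = 5 each; exact permutation test, adjusted p = 0.550), and the difference of 0.348 residues became -0.0184 without MP 4.

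**Figure D3:**
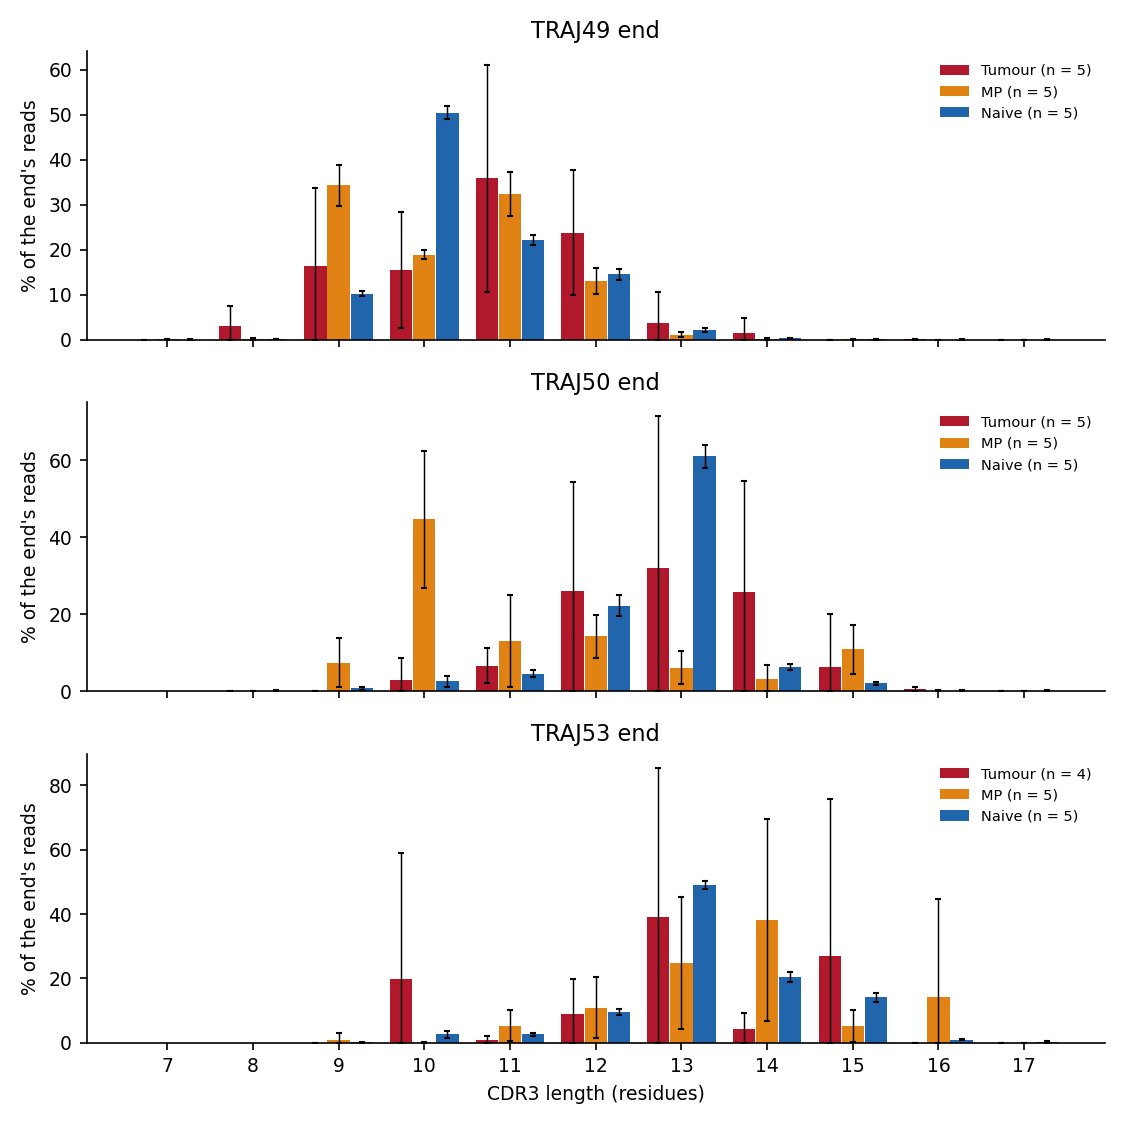
Share of an end's reads (%, vertical) by CDR3 length in residues (horizontal) for TRAJ49, TRAJ50 and TRAJ53. Bars are group means, black lines the SD, drawn no lower than 0 (n = 5, and 4 for TRAJ53 in Tumour). TRAJ50 loops peak at 10 residues in MP and at 13 in Naive. TRAJ49 loops peak at 9 and, nearly as high, at 11 residues in MP, and at 10 in Naive.

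Single CDR3s differed far more than the shares of the ends. In the edgeR quasi-likelihood test over all CDR3s, 382 of the 5409 members listed in MP or Naive libraries passed the filter of at least 10 reads in at least 3 libraries, 292 with the TRAJ49, 48 with the TRAJ50 and 42 with the TRAJ53 end. A CDR3 that passed only through the group where it is abundant had to differ, so that these counts describe the CDR3s tested. Of the 382, 41 were higher and 225 lower in MP, or 10.7% and 58.9%. Over all 5954 CDR3s tested, 12.6% were higher and 48.1% lower. The median log2 fold change was -6.24 for the members and -3.35 for all CDR3s. The medians were -6.60 and -5.82 without MP 1, -6.69 and -6.07 without MP 5, and -6.97 and -6.98 without both, a smaller gap than with all MP libraries in each case. Without MP 1 and MP 5 the shares were close, 71.3% of members and 70.6% of all CDR3s lower.

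By end, 32 TRAJ49 CDR3s were higher and 170 lower in MP, 9 TRAJ50 CDR3s were higher and 28 lower, and no TRAJ53 CDR3 was higher while 27 were lower. Without Naive 4, 27 of all members were higher, in place of 41. None of the 42 TRAJ53 CDR3s was higher at an unadjusted p under 0.05 or in DESeq2. Only 2 TRAJ53 CDR3s were listed in 3 or more MP libraries, against 171 in 3 or more Naive libraries. At most 2 could thus pass the filter through MP libraries alone, so that a count of 0 was nearly fixed in advance. A looser filter asked for a listing in at least 2 libraries, and so left out CDR3s of 1 library alone. With it, 7 of 360 TRAJ53 CDR3s were called higher, and 8 were higher at an unadjusted p under 0.05. The 32 TRAJ49 CDR3s higher in MP held 69.9 ± 3.07% of TRAJ49 reads in MP and 3.00 ± 0.30% in Naive. The 170 lower ones held 1.69 ± 0.903% in MP and 58.7 ± 1.40% in Naive (SD, n = 5 each). Of these 170 CDR3s, 141 were not listed in any MP library, and the same count over all CDR3s called lower is not given here. The calls chose these CDR3s from the same libraries. The gaps between the groups thus follow from the choice and are no further result.

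**Figure D4:**
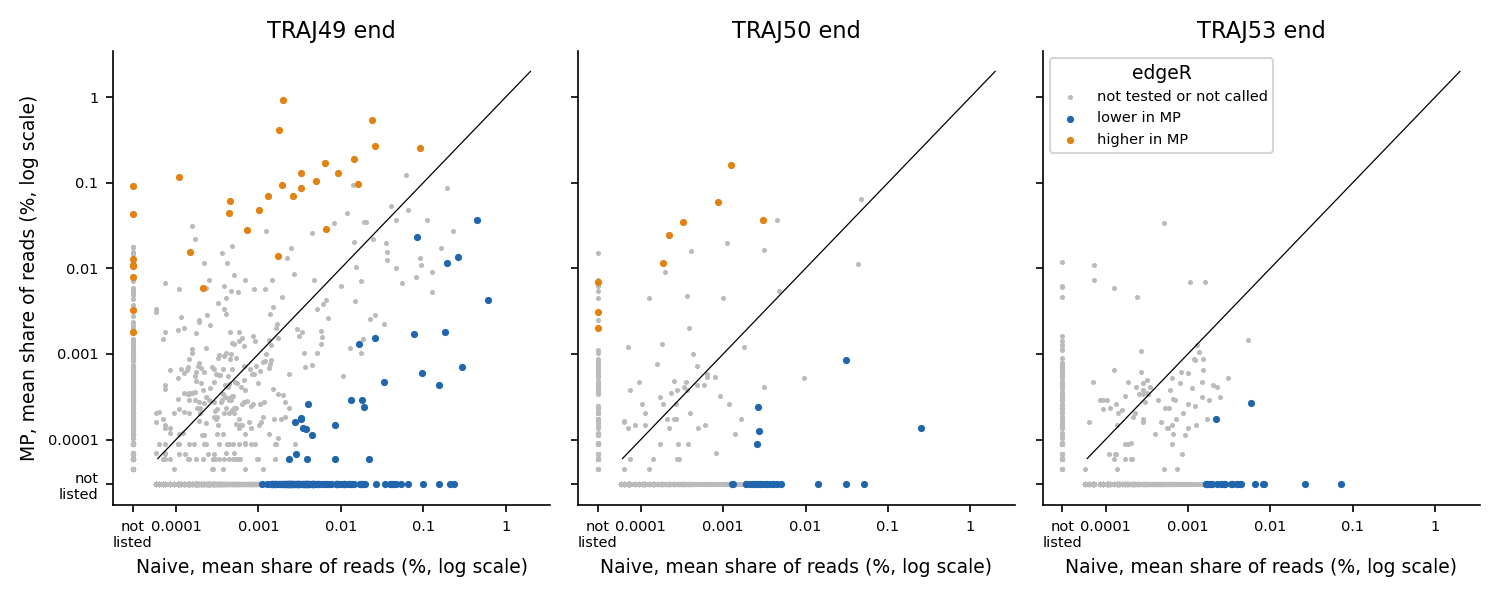
Mean share of reads (%, log scales) of each member CDR3 in MP (vertical) against Naive (horizontal). The line marks equal shares, and CDR3s without reads in a group sit at "not listed". Colours mark CDR3s called higher or lower in MP by edgeR (adjusted p under 0.05). TRAJ49 has 32 and TRAJ50 9 calls above the line. TRAJ53 has none with the filter on low counts, which few TRAJ53 CDR3s could pass through MP libraries.

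The CDR3s named below were chosen by their abundance, recurrence or fold in these same libraries. Their folds and p-values thus describe them and are no independent test. Those near 0 in a group could pass the filter only through the other group. Among TRAJ49 loops, AMAGYQNFY held 1.02, 1.00, 0.773, 0.851 and 0.937% of all reads in MP 1 to 5. It held 0.00157, 0, 0.00157, 0.00163 and 0.00519% in Naive 1 to 5. This was the most abundant TRAJ49 loop of 4 MP libraries and was 461-fold higher in MP by the ratio of means (edgeR log2 fold change 8.83 ± 1.17 SE, adjusted p = 6.62e-04, n = 5 each). ALGNTGYQNFY was as even, with 0.366, 0.433, 0.392, 0.413 and 0.438% in MP 1 to 5 and at most 0.00242% in a Naive library. AITGYQNFY spread more, with 0.360, 1.07, 0.282, 0.278 and 0.741% in MP 1 to 5, and was 23.1-fold higher than in Naive by the means of 0.546 ± 0.350% and 0.0236 ± 0.0129%. In edgeR both passed (log2 fold changes 7.82 and 4.53, adjusted p of 6.62e-04 and 8.64e-04).

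The loops with the largest fitted increases were rarer. AAGASAGYQNFY held 0.125, 0.170, 0.0211, 0.0258 and 0.117% in MP 1 to 5 and was not listed in Naive libraries, at least 182-fold higher when each Naive library is set at 3 reads. ALVPGYQNFY was listed in 4 MP libraries with a mean of 0.0432% and in no Naive library, at least 85.9-fold higher. ALVTGYQNFY held 0.109, 0.00161, 0.245, 0.0688 and 0.158% in MP 1 to 5 and was listed in Naive 4 alone, at 0.000543%.

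On the Naive side, AVSTGYQNFY led TRAJ49 in every library. It held 0.0108, 0.00235, 0, 0 and 0.00833% of reads in MP 1 to 5 and 0.696, 0.516, 0.617, 0.585 and 0.659% in Naive 1 to 5. It was 143-fold lower in MP (edgeR log2 fold change -7.15 ± 1.61 SE, adjusted p = 0.00377, n = 5 each). AFNTGYQNFY was listed in MP 1 alone, at 0.00351%, and held 0.233 to 0.335% in Naive libraries. AVNTGYQNFY held up to 0.0754% in an MP library, against 0.341 to 0.663% in Naive libraries, and its call (adjusted p = 0.0389) was lost without MP 1, MP 4, MP 5 or any Naive library, with an adjusted p of up to 0.0740. ALEHPGYQNFY, AIATGYQNFY and AMVDTGYQNFY were not listed in MP libraries and averaged 0.236, 0.209 and 0.154% in Naive libraries, at least 539-, 478- and 352-fold lower in MP at 3 reads per library.

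The residue that precedes the TRAJ49 end differed with them. Threonine, the germline residue, preceded it in 69.7 ± 4.43% of TRAJ49 reads in MP and 78.6 ± 0.736% in Naive. Alanine stood there in 21.7 ± 4.17% of reads in MP and 2.42 ± 0.285% in Naive (SD, n = 5 each). Every MP library had more alanine there than every Naive library. AMAGYQNFY carried much of it. Without that loop the alanine share was 6.75 ± 3.01% in MP and 2.39 ± 0.275% in Naive, and the lowest MP library, at 2.17%, lay within the Naive range of 2.05 to 2.78%. These residue shares were not tested.

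Among TRAJ50 loops, the short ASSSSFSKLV held 0.196, 0.0938, 0.0893, 0.168 and 0.252% of reads in MP 1 to 5 and at most 0.00204% in a Naive library. It was 130-fold higher in MP (edgeR log2 fold change 7.0 ± 1.1 SE, adjusted p = 6.89e-04, n = 5 each). A TRAJ50 CDR3 of 15 residues followed the same direction, with 0.0599% in MP and 0.000855% in Naive by the means (log2 fold change 6.10, edgeR adjusted p = 0.00159). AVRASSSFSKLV was abundant in both groups, with a mean of 0.0648% in MP and 0.0474% in Naive, and did not pass (log2 fold change 0.45 ± 0.48 SE, adjusted p = 0.456).

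One loop dominated TRAJ50 in Naive cells. AAIIASSSFSKLV held 0.256, 0.217, 0.274, 0.263 and 0.255% of reads in Naive 1 to 5, which is 33.4% of the TRAJ50 reads of a Naive library on average, and was listed among MP libraries in MP 1 alone, at 0.000680%. By the means it was 1860-fold lower in MP (edgeR log2 fold change -10.6 ± 1.53 SE, adjusted p = 6.62e-04, n = 5 each). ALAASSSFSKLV, at 0.0377 to 0.0887% in Naive libraries, was not listed in MP and was at least 118-fold lower. The germline stretch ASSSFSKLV was whole in 50.2 ± 12% of TRAJ50 reads in MP and 84.5 ± 1.04% in Naive (SD, n = 5 each), with no overlap between the groups and no test. AAIIASSSFSKLV holds that stretch whole, while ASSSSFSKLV, at 27.9% of TRAJ50 reads in MP, does not.

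TRAJ53 loops of Naive cells recurred at even levels. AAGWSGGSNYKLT held 0.0692, 0.0663, 0.0730, 0.0755 and 0.0721% of reads in Naive 1 to 5. It was not listed in any MP library, at least 163-fold lower in MP at 3 reads per library (edgeR adjusted p = 6.62e-04). It could pass the filter only through Naive libraries, so that a difference was nearly fixed in advance. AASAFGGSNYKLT, with a mean of 0.0263%, and AAKRGSGGSNYKLT, with 0.00844%, were likewise listed in all 5 Naive libraries and in no MP library, at least 60.1- and 19.3-fold lower. In MP cells the leading TRAJ53 loops belonged to single libraries. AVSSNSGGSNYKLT held 0.171% of reads in MP 3, where it was 77.0% of TRAJ53 reads, and was not listed in the other MP libraries. A CDR3 of 16 residues, at 0.0599%, made up 67.7% of TRAJ53 reads in MP 4 alone, and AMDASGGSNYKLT held 0.0544% in MP 2 alone. In MP 5 no TRAJ53 loop reached more than 4.85% of TRAJ53 reads.

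Loops were also counted by how many libraries of a group list them. Over all CDR3s, 483 of 25439 in MP (1.90%) and 4440 of 73948 in Naive (6.00%) were listed in all 5 libraries. They held 65.8 ± 1.39% of reads in MP and 78.7 ± 0.548% in Naive (SD, n = 5 each). Of TRAJ49 CDR3s, 30 of 731 in MP and 232 of 2812 in Naive were listed in all 5 libraries of their group, and these held 70.5 ± 4.09% of TRAJ49 reads in MP and 88.1 ± 1.10% in Naive. For TRAJ50 the shared CDR3s were 6 of 190 in MP and 34 of 851 in Naive, with 55.2 ± 15% of TRAJ50 reads in MP and 73.4 ± 1.19% in Naive. For TRAJ53, 0 of 215 in MP and 49 of 1145 in Naive were listed in all 5, and the Naive ones held 45.5 ± 4.41% of TRAJ53 reads. CDR3s of a single library held 84.9 ± 9.97% of TRAJ53 reads in MP and 23.6 ± 2.11% in Naive (SD, n = 5 each). Over all CDR3s, those of a single library held 12.2 ± 1.04% of reads in MP and 8.26 ± 0.301% in Naive. The TRAJ53 end had 508 to 1605 reads in an MP library and 2407 to 3430 in a Naive library, and MP libraries listed 11 to 107 of its CDR3s, so that depth and the number of CDR3s per library move with this. Their part in the result was not tested.

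**Figure D5:**
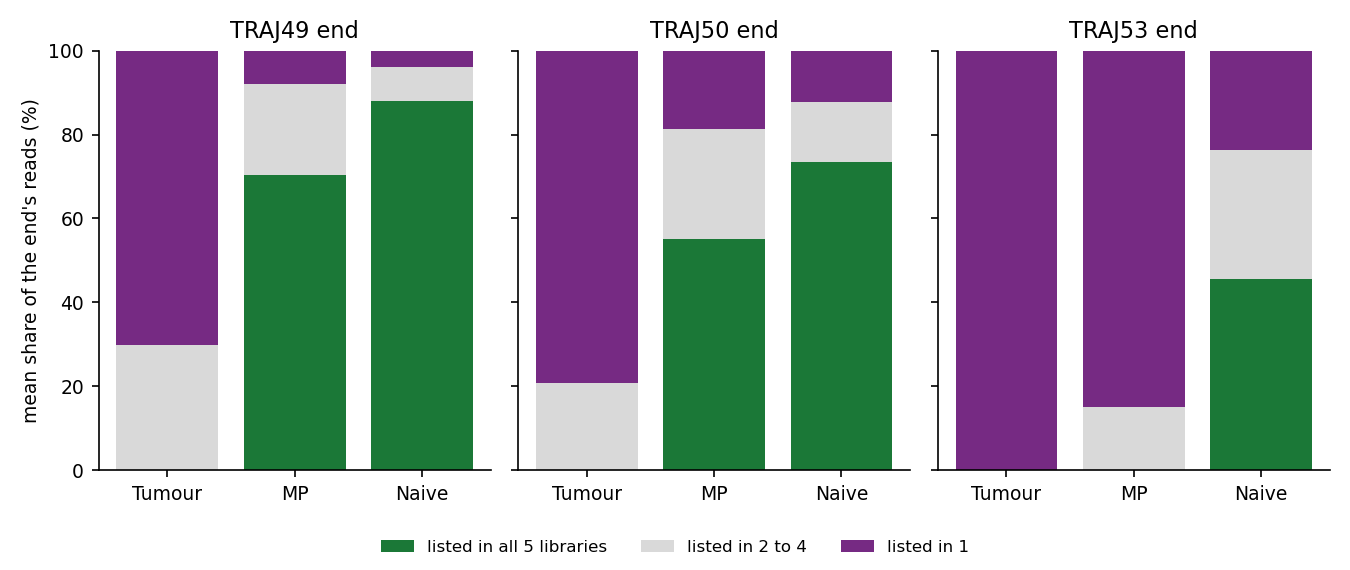
Mean share of an end's reads (%, vertical; n = 5 libraries, 4 for TRAJ53 in Tumour) held by CDR3s listed in all 5, in 2 to 4 or in 1 of the libraries of the group. In MP, CDR3s of all 5 libraries hold 70.5% of TRAJ49, 55.2% of TRAJ50 and 0% of TRAJ53 reads.

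Pairs of libraries were also compared by the Morisita-Horn index (1 for equal proportions, 0 for no CDR3 in common). Between MP libraries it averaged 0.867 within TRAJ49, 0.590 within TRAJ50 and 0.0129 within TRAJ53, over 10 pairs each. Between Naive libraries it was 0.961, 0.974 and 0.931. Across MP and Naive libraries it was 0.0805, 0.0637 and 0.0193 over 25 pairs. CDR3s with any other end averaged 0.919 between MP libraries, 0.974 between Naive libraries and 0.0577 across these groups. Pairs share libraries, and the index is given as a description.

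In tumours the TRAJ49 end was low in 4 libraries and high in 1. It held 0.810, 1.36, 1.52, 1.08 and 7.54% of reads in Tumour 1 to 5, with a mean of 2.46 ± 2.85% (SD, n = 5). Neither comparison passed the exact permutation test, with -3.35 percentage points in Tumour against MP (adjusted p = 0.119) and -4.91 in Tumour against Naive (adjusted p = 0.0893). Without Tumour 5 these were -4.62 and -6.17 percentage points, each with an adjusted p of 0.0510. Over all ends, 20% were lower and 6.67% higher in Tumour than in MP, and 24.4% lower and 2.22% higher in Tumour than in Naive. Both comparisons use the same tumours.

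The high value of Tumour 5 came from a few loops. AVRAGGYQNFY alone was 3.81% of its reads and 50.6% of its TRAJ49 reads, VLRRPGYQNFY was 1.42% and AVREPYTGYQNFY 1.05%. None of the 3 was listed in another tumour or in MP libraries, and among Naive libraries only AVRAGGYQNFY was listed, in Naive 5 at 0.000629%. When the 10 most abundant CDR3s of each library were left out, TRAJ49 was lower in Tumour than in MP by -5.01 percentage points (adjusted p = 0.0298) and than in Naive by -5.38 (adjusted p = 0.0255).

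The TRAJ50 end held 0.297, 0.575, 0.528, 0.429 and 0.732% of reads in Tumour 1 to 5, a mean of 0.512 ± 0.163% (SD, n = 5). Tumour 1 lay below all MP libraries and the other 4 tumours within their range, while Tumour 5 alone lay within the Naive range. The differences of -0.110 percentage points in Tumour against MP and -0.246 in Tumour against Naive did not pass (exact permutation test, n = 5 each, adjusted p of 0.443 and 0.0595). TRAJ50 loops of tumours were longer than those of MP, with 13.5, 12.6, 13.1, 13.3 and 12.2 residues in Tumour 1 to 5 and no overlap with MP. The mean difference was 1.71 residues (exact permutation test, n = 5 each, adjusted p = 0.0253), while in Tumour against Naive it was 0.230 residues (adjusted p = 0.582). The first call was lost without Tumour 1 or MP 1, MP 2, MP 3 or MP 5 (adjusted p = 0.0505 in each case). Of 35 ends tested for length, 31.4% were longer and 2.86% shorter in Tumour than in MP, and 8.57% longer and 11.4% shorter in Tumour than in Naive. TRAJ49 loops averaged 10.8 ± 0.390 residues in Tumour and passed in neither comparison (adjusted p of 0.0855 against MP and 0.317 against Naive), except against MP without Tumour 2 (0.648 residues, adjusted p = 0.0397).

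The TRAJ53 end was the scarcest, at 0.0833, 0.108, 0, 0.0297 and 0.187% of reads in Tumour 1 to 5, with no listed CDR3 in Tumour 3. Every tumour was below every Naive library. The mean was 0.0816 ± 0.0729% in Tumour against 0.478 ± 0.0385% in Naive (SD, n = 5 each; exact permutation test, adjusted p = 0.0298). The call was lost without Tumour 2, Tumour 5 or any one Naive library (adjusted p of 0.0510 to 0.0595). Tumour and MP overlapped and did not pass (-0.0855 percentage points, adjusted p = 0.171). Since Tumour 3 lacked the end, its mean length of 12.9 ± 1.77 residues (SD, n = 4) was not tested.

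Most loops with these ends were listed in 1 tumour, as were most CDR3s of tumours. Over all CDR3s, 5280 of 6146 were listed in 1 tumour and 70 in all 5. Of the TRAJ49 CDR3s listed in any tumour, 190 of 211 were listed in 1 tumour, as were 93 of 98 with the TRAJ50 end and 20 of 20 with the TRAJ53 end. These counts are without folding of possible reading errors. Folding removed 42.3, 28.8, 68.0, 50.9 and 69.0% of all distinct CDR3s in Tumour 1 to 5. No Naive library lost more than 7.19%, and no MP library more than 30.6%. Members fell from 31 to 13 in Tumour 3 and from 82 to 26 in Tumour 5. Some CDR3s of 1 tumour may thus be reading errors of abundant ones. No loop with these ends was listed in all 5 tumours, and 5 of 329 were listed in at least 3. Over all CDR3s, 327 of 6146 were listed in at least 3 tumours. These 5 loops all had the TRAJ49 end, as did 211 of the 329. AASEAGYQNFY held 0.0208, 0.0198, 0.00391 and 0.0734% in Tumour 2 to 5, and averaged 0.0946% in MP and 0.0140% in Naive. ALSDTGYQNFY was listed in 4 tumours as well, at 0.0434, 0.0383, 0.00367 and 0.0724% in Tumours 1, 2, 4 and 5, against 0.0706 ± 0.0274% in MP and 0.00262 ± 0.00117% in Naive (SD, n = 5 each). AITGYQNFY held 0.0990, 0.353 and 0.0876% in Tumours 1, 2 and 4. AANTGYQNFY reached 0.171% in Tumour 5 and ALSDPTGYQNFY 0.169% in Tumour 1, both at 0.0298% or less in 2 further tumours. AMAGYQNFY, the leading TRAJ49 loop of MP cells, was listed in Tumour 2 alone, at 0.0416%.

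The leading TRAJ50 and TRAJ53 loops of tumours were seen in 1 or 2 tumours. ATDASSSFSKLV held 0.140 and 0.285% of reads in Tumours 4 and 5. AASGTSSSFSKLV held 0.490% in Tumour 3, which is 93.0% of the TRAJ50 reads there, and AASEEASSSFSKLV 0.174% in Tumour 1. None of these TRAJ50 loops was listed in MP or Naive libraries. With the TRAJ53 end, a CDR3 of 15 residues held 0.185% in Tumour 5, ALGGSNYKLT 0.0652% in Tumour 1 and AIVNSGGSNYKLT 0.0371% in Tumour 2.

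In edgeR, 88 members were tested in Tumour against MP, none of them with the TRAJ53 end. Of these 63 were lower in Tumour and 0 higher, the latter also at an unadjusted p under 0.05 and in DESeq2. Of the members, 71.6% were lower where 66% of all 1666 CDR3s tested were lower and 7.68% higher. Only 5 members were listed in 3 or more tumours, so that few could pass the filter through tumours alone. A count near 0 of members higher in Tumour was thus nearly fixed in advance, here and against Naive. Without MP 1 or without MP 5, 31 members were lower. In Tumour against Naive, 293 of 329 members were lower and 1 was higher, or 89.1% lower, where 86.7% of all 4671 CDR3s were lower and 3.38% higher. The CDR3 higher in Tumour was ALSDTGYQNFY, with a log2 fold change of 3.58 ± 1.36 SE (adjusted p = 0.0285, n = 5 each). That count was 0 with TMM and without any one Naive library, and 2 without Tumour 3 or Tumour 4. Tumour libraries hold fewer distinct CDR3s than the others, which moves with these counts, and its part was not tested.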

How the data were processed

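Alpha chain CDR3s were measured in 5 Tumour, 5 MP and 5 Naive libraries. Per the labels, RNA of sorted cells was taken with Trizol, and iRepertoire amplified the chains by arm-PCR, a multiplex RT-PCR, and sequenced them. The deposited values are raw counts of reads per CDR3 peptide, 1 list per library. How reads were aligned, CDR3s called and errors filtered, and whether molecular identifiers were used, was not given in the sources used here. Without such identifiers PCR reads are no independent molecules, and floors then cover counting error only. Whether MP and Naive libraries of the same number share a mouse is not stated either, and p-values measure the spread between libraries.

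The share of an end is the percent of a library's reads whose CDR3 has its 6 residues. Groups were compared by an exact two-sided permutation test that runs through all 252 ways to split 10 libraries, where p is 2 times the smaller tail and at least 0.00794 (0.0159 with 1 library left out). P-values were adjusted by Benjamini-Hochberg over the 45 ends with a mean share of at least 0.1%, or, for the read-weighted mean length, over those of them with reads in every library. Single CDR3s were tested on all counts with edgeR 4.0.16 (R 4.3.3, limma 3.58.1; total reads as library size, at least 10 reads in at least 3 libraries, threshold 0.05), each pair of groups alone. A lower bound on a fold sets each library of the empty group at 3 reads. Both tests were checked on simulated data. Values were computed with python 3.11.15, numpy 2.4.6, scipy 1.17.1 and pandas 2.3.3.

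Alternatives were ends of 5 or 7 residues, filters on low counts, distinct CDR3s in place of reads, leaving out abundant CDR3s, folding of possible reading errors, TMM, DESeq2 1.42.0, a block for the library number, and leaving out each library. Leaving out MP 1 and MP 5 together was chosen after seeing their numbers of CDR3s. Named were the 3 most abundant CDR3s of each end in each group by mean share, the 3 largest called folds each way in MP over Naive, and the CDR3s of at least 3 tumours. The members and lists were chosen with earlier results of these data known. Named CDR3s of 15 or more residues are described by length only.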

Additional observations from a re-analysis of the deposited data

Results flagged for a closer look

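A library was picked out where its distance to the nearest other library exceeded 0.71 of the whole range of its group (Dixon's test for 5 libraries). This was computed for 74 sets of 5 libraries, and for normally spread values chance picks out about 1 set in 20. A CDR3 listed in 1 library of a group is always picked out, so that this rate does not hold for such sets.

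Tumour 5 was picked out for TRAJ49, at 7.54% of reads, and for the sum of the 3 ends, at 8.46%. Naive 1 was picked out for the sum, at 8.99%, against 8.47 to 8.57% in the other Naive libraries.

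Many CDR3s were picked out because they were listed in 1 library of a group or were far above the rest there. In Tumour 5 these were AVRAGGYQNFY (3.81% of reads), VLRRPGYQNFY (1.42%), AVREPYTGYQNFY (1.05%) and a TRAJ53 CDR3 of 15 residues (0.185%). In Tumour 2 they were AITGYQNFY (0.353%), AMAGYQNFY (0.0416%), AIVNSGGSNYKLT (0.0371%), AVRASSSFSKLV (0.00976%) and ALVPGYQNFY (0.00398%). In the other tumours they were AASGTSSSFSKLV (0.490%) and AVSTGYQNFY (0.000478%) in Tumour 3, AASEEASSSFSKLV (0.174%) and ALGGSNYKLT (0.0652%) in Tumour 1, and a TRAJ50 CDR3 of 15 residues (0.102%) in Tumour 4.

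Among MP libraries they were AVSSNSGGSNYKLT (0.171%) in MP 3, a TRAJ53 CDR3 of 16 residues (0.0599%) in MP 4, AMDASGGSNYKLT (0.0544%) in MP 2, and AFNTGYQNFY (0.00351%) and AAIIASSSFSKLV (0.000680%) in MP 1. Among Naive libraries they were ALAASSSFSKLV (0.0887%) in Naive 2, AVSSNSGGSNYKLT (0.00199%) and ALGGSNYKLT (0.000285%) in Naive 1, AVRAGGYQNFY (0.000629%) in Naive 5, and ALVTGYQNFY (0.000543%) and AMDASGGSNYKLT (0.000362%) in Naive 4. ALGNTGYQNFY was picked out as the one low value, 0% in Naive 2.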

How the results depend on the processing

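Of the 177 shares of reads recomputed under an alternative, 140 kept direction and side of the threshold, as did 71 of 96 mean lengths and 677 of 719 fold changes of named CDR3s. The TRAJ53 share in MP minus Naive kept its call under all alternatives but the paired one and the one without MP 1 and MP 5. Where a value below changed, the cause was not tested, except that fewer libraries raise the smallest possible p.

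With each distinct CDR3 counted once, the TRAJ49 share in MP minus Naive was -0.432 percentage points (no longer called) and the TRAJ50 share -0.239 (now called). The TRAJ50 share turned sign in Tumour minus MP (0.569) and in Tumour minus Naive (0.330). The TRAJ53 length in MP minus Naive (-0.0382 residues) and the TRAJ49 length in Tumour minus Naive (-0.174) turned sign, and the TRAJ50 length in Tumour minus MP was 1.10 residues (not called). Without the 10 most abundant CDR3s of each library, the TRAJ49 share was -0.371 in MP minus Naive (not called), -5.01 in Tumour minus MP and -5.38 in Tumour minus Naive (both now called), and the TRAJ50 share turned sign in Tumour minus MP (0.144) and Tumour minus Naive (0.125). Without the most abundant CDR3 of each end, MP minus Naive was -1.24 for TRAJ49 (not called) and 0.0164 for TRAJ50 (turned). With ends of 7 residues, TRAJ49 was called in Tumour minus MP (-3.02) and Tumour minus Naive (-4.76). With ends of 5 residues, TRAJ50 was called in Tumour minus Naive (-0.248). With CDR3s of at least 10 reads, the TRAJ49 share was called in Tumour minus Naive (-5.38), and the TRAJ49 length in MP minus Naive was not (-0.158 residues).

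The library number was also used as a replicate block. Same-numbered MP and Naive libraries had correlations of 0.0125 to 0.0470 in their deviations from the group means. These low values cannot decide whether the libraries are pairs, since MP and Naive libraries have few abundant CDR3s in common. Of 5 MP libraries, 4 correlated best with their own number, a hint of a link that comes from the data and not from the design. The labels do not say whether they share a mouse. With 5 pairs the exact test cannot go below 0.0625. The replicate block left the differences as they are and ended the calls of TRAJ49 (-1.55 percentage points) and TRAJ53 (-0.311) and of the TRAJ49 (-0.211 residues) and TRAJ50 (-1.48) lengths in MP minus Naive, of the TRAJ50 length in Tumour minus MP (1.71) and of TRAJ53 in Tumour minus Naive (-0.397). Tumours came from males aged 27 weeks and the other libraries from males aged 9 weeks, so same-numbered libraries share no mouse there. In comparisons with Tumour the block is thus arbitrary. EdgeR with the block gave 20 members lower in Tumour than in MP and 0 higher in Tumour than in Naive. The fold change of a named CDR3 turned sign in Tumour over Naive with the block for AMAGYQNFY (log2 fold change -5.65, against 2.05) and AITGYQNFY (-0.12, against 2.19).

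Leaving out each library in turn gave, in MP minus Naive, -1.95 to -1.26 percentage points for TRAJ49, -0.177 to -0.0852 for TRAJ50, -0.328 to -0.291 for TRAJ53, and -0.253 to -0.184 residues for the TRAJ49 length and -0.0184 to 0.511 for the TRAJ53 length. In Tumour minus MP the lengths ranged over 0.388 to 0.648 (TRAJ49) and 1.58 to 1.88 residues (TRAJ50), and TRAJ53 in Tumour minus Naive over -0.423 to -0.376. Without MP 1 and MP 5, MP minus Naive was -1.66 for TRAJ49, -0.296 for TRAJ53, -0.173 residues for the TRAJ49 length and -1.36 for the TRAJ50 length, and the TRAJ50 length in Tumour minus MP was 1.59, none of them called.

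Counts of edgeR calls also moved. The looser filter asked for a listing in at least 2 libraries. Members higher in MP than in Naive numbered 99 with the looser filter and 26 without MP 1 and MP 5. Without 1 library they numbered 27 to 41. Members lower in MP numbered 64 at 50 reads or more and 1095 with the looser filter. For Tumour over MP, 11 were higher with the looser filter. Lower were 41 at 50 reads or more and 197 with the looser filter. Without MP 1 and MP 5, 12 were lower, and without 1 library 31 to 66. For Tumour over Naive, 0 were higher with TMM, 6 with the looser filter and 0 to 2 without 1 library. At 50 reads or more 92 were lower, and with the looser filter 1482. TRAJ53 had 243 to 1769 reads in the 4 tumours that list it, which limits what can be seen there.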

Other observations

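The first residues of a CDR3 come from the variable segment and were not used to choose the members. Among TRAJ49 reads, loops that start with AM held 23.1 ± 1.73% in MP and 13.2 ± 1.84% in Naive, those with AI 15.7 ± 5.46% in MP and 6.08 ± 0.746% in Naive, and those with AT 8.74 ± 2.09% in MP and 3.45 ± 0.452% in Naive. Loops that start with AF held 0.627 ± 0.543% in MP and 5.95 ± 0.641% in Naive, those with AS 1.20 ± 0.623% in MP and 5.51 ± 0.840% in Naive, those with AV 13.1 ± 3.14% in MP and 24.9 ± 3.25% in Naive, and those with AA 6.81 ± 2.18% in MP and 13.2 ± 2.44% in Naive (SD, n = 5 each). Of the 10 TRAJ49 starts compared, 8 did not overlap between MP and Naive libraries, while AL and AP overlapped. Over CDR3s without the 3 ends, 6 of the same 10 starts did not overlap. There the AM start was also higher in MP, at 8.29 ± 1.78% in MP and 5.22 ± 0.203% in Naive. The AV start was also lower, at 6.08 ± 0.486% in MP and 12.1 ± 0.898% in Naive. Against the direction in TRAJ49, the AI start was lower in MP, at 3.32 ± 1.22% in MP and 6.52 ± 0.572% in Naive. So was the AT start, at 2.51 ± 0.579% in MP and 4.11 ± 0.225% in Naive (SD, n = 5 each). The AA, AF and AS starts overlapped there. Among TRAJ50 reads the AS start was the reverse of that in TRAJ49, at 34.1 ± 15.3% in MP and 0.937 ± 0.0774% in Naive, and no tumour listed it. Single loops named above hold much of several of these starts. By the mean, AMAGYQNFY held 16.0% and AITGYQNFY 8.82% of TRAJ49 reads in MP, and AFNTGYQNFY held 4.00% in Naive. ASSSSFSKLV held 27.9% of TRAJ50 reads in MP. These shares were looked at without a test.

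The read-weighted net charge of TRAJ49 loops, with K and R counted against D and E, was 0.0170 ± 0.0152 in MP and -0.218 ± 0.0170 in Naive, without overlap. In Tumour it ranged from -0.493 to 0.859. For TRAJ53 the group ranges overlapped, with 0.621 to 1.56 in MP and 0.954 to 1.07 in Naive. Across tumour and MP libraries, the Morisita-Horn index averaged 0.125 over CDR3s with the 3 ends and 0.00699 over all other CDR3s, over 25 pairs, with values for the 3 ends from 8.32e-05 to 0.525. Between tumours it averaged 0.0524 over CDR3s with the 3 ends and 0.220 over all other CDR3s, over 10 pairs.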
